A study of Mus musculus with 6 samples.

Results

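The neuropeptide precursor genes Sst, Npy, Cck, Vip, Tac1, Tac2, Cartpt, Adcyap1 and Nts were followed in the mouse ventrobasal thalamus after a local haemorrhage. They are 9 of the 26554 features of the deposited tables, were picked by gene name, with earlier results of these data known, and all 9 were abundant enough to be among the 17240 genes tested. The tissue, VPL/VPM, holds the ventral posterolateral nucleus and the ventral posteromedial nucleus of the thalamus, the relay of body and face sensation. Wild-type C57 mice had been injected on the right side, either with type IV collagenase (0.01 U in 10 nL), which breaks down vessel walls and serves as a model of central post-stroke pain (CPSP), or with 10 nL of saline. Tissue was taken 14 days later. Each group had 3 libraries, made from polyadenylated RNA, and the comparison asked which genes differed in the CPSP model. All animals carried an injection track and no uninjected tissue was analysed here. Whether a library stands for 1 animal or for several is not stated in the labels, and the p-values therefore cover the variation among these libraries alone, which may in part be technical.

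Neuropeptides are cut from precursor proteins in dense-core vesicles, released during strong activity, and act through G protein-coupled receptors on scales slower than fast transmitters. Somatostatin (Sst) and neuropeptide Y (Npy) are made mainly by inhibitory neurons in the forebrain, and Sst is also made in the reticular thalamic nucleus, which wraps the relay nuclei. Cholecystokinin (Cck) is made by many cortical and some thalamic excitatory neurons and by some interneurons. Vip encodes vasoactive intestinal peptide, Adcyap1 the related peptide PACAP, Cartpt the CART peptides, and Nts neurotensin. Tac1 gives substance P and neurokinin A and is abundant in striatal projection neurons, while Tac2 gives neurokinin B and marks the medial habenula, which lies close above the thalamus in the mouse.

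Several of these genes are textbook targets of cAMP signalling through the cAMP response element, TGACGTCA, which reads the same on both strands. RefSeq promoter windows of GRCm38.p6, running from 250 bases before the transcription start to 50 after it, were available for all 9 genes. The full element was found in the windows of Sst and Cartpt, and in 1.79% of all 32851 windows. Its 5-base core TGACG, searched on both strands and contained in the full element, was found for 7 genes (Sst, Cck, Vip, Tac1, Cartpt, Adcyap1 and Nts) and in 20.8% of all windows. The TATAAA box was found in 2 members, Vip and Adcyap1, and in 13.6% of windows. The CCAAT box was found in 4 members, Npy, Tac1, Tac2 and Adcyap1, and in 37.4% of windows. A match is a stretch of letters and does not show that a factor binds there. The stretches around the full element are printed for the genes that hold it, those around the core for Vip, Adcyap1 and Cck, and for Npy, which held neither, the bases just before the start. Capitals mark the element or its core, and each line reads 5′ to 3′ on the gene's own strand.
Sst: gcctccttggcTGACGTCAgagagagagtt
Cartpt: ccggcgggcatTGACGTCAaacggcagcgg
Vip: gatcactactgTGACGtctttcgggga
Adcyap1: gactaggatgcTGACGtcttttactga
Cck: ctgctggactgCGTCAgcactgggtaa
Npy: gcgctccataaaagcctgtgggcgacc
These stretches lie at chr16:23890874-23890903 (minus strand) for Sst, chr13:99900777-99900806 (minus) for Cartpt, chr10:5639128-5639154 (plus) for Vip, chr17:93198915-93198941 (plus) for Adcyap1, chr9:121495726-121495752 (minus) for Cck and chr6:49822683-49822709 (plus) for Npy. The element began 48 bases before the RefSeq start in Sst and 112 before it in Cartpt, and the core 79 before it in Vip, 91 in Adcyap1 and 47 in Cck. GENCODE M21 places the starts of Sst and Cartpt farther upstream, so that both printed stretches fall within the gene spans of that annotation.

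The libraries held 36463551 to 44815451 counts after collagenase and 33603076 to 44363142 after saline. Levels are given as CPM, the usual depth-scaled counts, after scaling by TMM factors, and tests are edgeR's quasi-likelihood F-test with Benjamini-Hochberg adjustment over all tested genes. Striatal and habenular markers differed widely between libraries of the same group. Those of cortex and hippocampus, given below, were lower in sum in every collagenase library than in every saline library. Slc17a7 made up most of that sum. Taken singly, 3 of the 10 markers were lower without overlap between the groups, which held for 7.50% of all tested genes. Others of the 10 also differed widely within a group, such as Neurod6, with 23.0, 39.8 and 0.176 CPM in saline libraries 1, 2 and 3. The summed level of 9 striatal markers was 340.1, 187.2 and 162.4 CPM in collagenase libraries 1, 2 and 3, against 218.8, 182.3 and 933.0 CPM in saline libraries 1, 2 and 3. That of 8 habenular markers was 124.6, 54.9 and 169.5 CPM after collagenase, against 20.0, 21.5 and 136.2 CPM after saline. Saline library 3 thus stood apart, with the highest value of all 9 striatal markers, and values without it are given below for each of the 9 precursors. Markers of relay neurons were present in every library, at a summed 2952.5 to 3448.7 CPM after collagenase and 3004.5 to 4526.6 CPM after saline, and none of the 12 was at 0.

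Per unit of transcript length, in the deposited FPKM, Cck was the most abundant of the 9 precursors in both groups and Vip the least. Cck stood at 211.4 ± 38.8 FPKM after collagenase and 279.8 ± 14.9 FPKM after saline, and Sst at 61.1 ± 16.6 and 100.3 ± 35.2 FPKM (SD, n = 3 each). After collagenase the order went on with Tac2 at 31.5 ± 22.6, Npy at 14.0 ± 2.46, Tac1 at 11.2 ± 2.71, Adcyap1 at 6.48 ± 0.817, Nts at 3.77 ± 0.448, Cartpt at 2.66 ± 0.721 and Vip at 0.435 ± 0.124 FPKM. The library ranges of Sst and Tac2, of Tac2 and Npy and of Npy and Tac1 overlapped, so the ranges did not separate those neighbours. Compared within each collagenase library, the order of these neighbours was the same in 3 of 3. After saline Npy at 25.6 ± 8.59 FPKM stood before Tac2 at 14.1 ± 21.0 and Tac1 at 13.5 ± 9.11 FPKM, and Adcyap1 at 4.25 ± 1.92, Nts at 3.53 ± 2.1, Cartpt at 2.43 ± 0.762 and Vip at 0.632 ± 0.477 FPKM followed. Among the saline libraries every neighbouring pair from Npy down to Cartpt overlapped, and Cck, Sst and Vip did not overlap with their neighbours. Cck and Sst together made up 70.2%, 78.6% and 72.8% of the summed CPM of the 9 genes in the collagenase libraries, against 86.4%, 82.0% and 79.1% in the saline libraries.

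**Figure D1:**
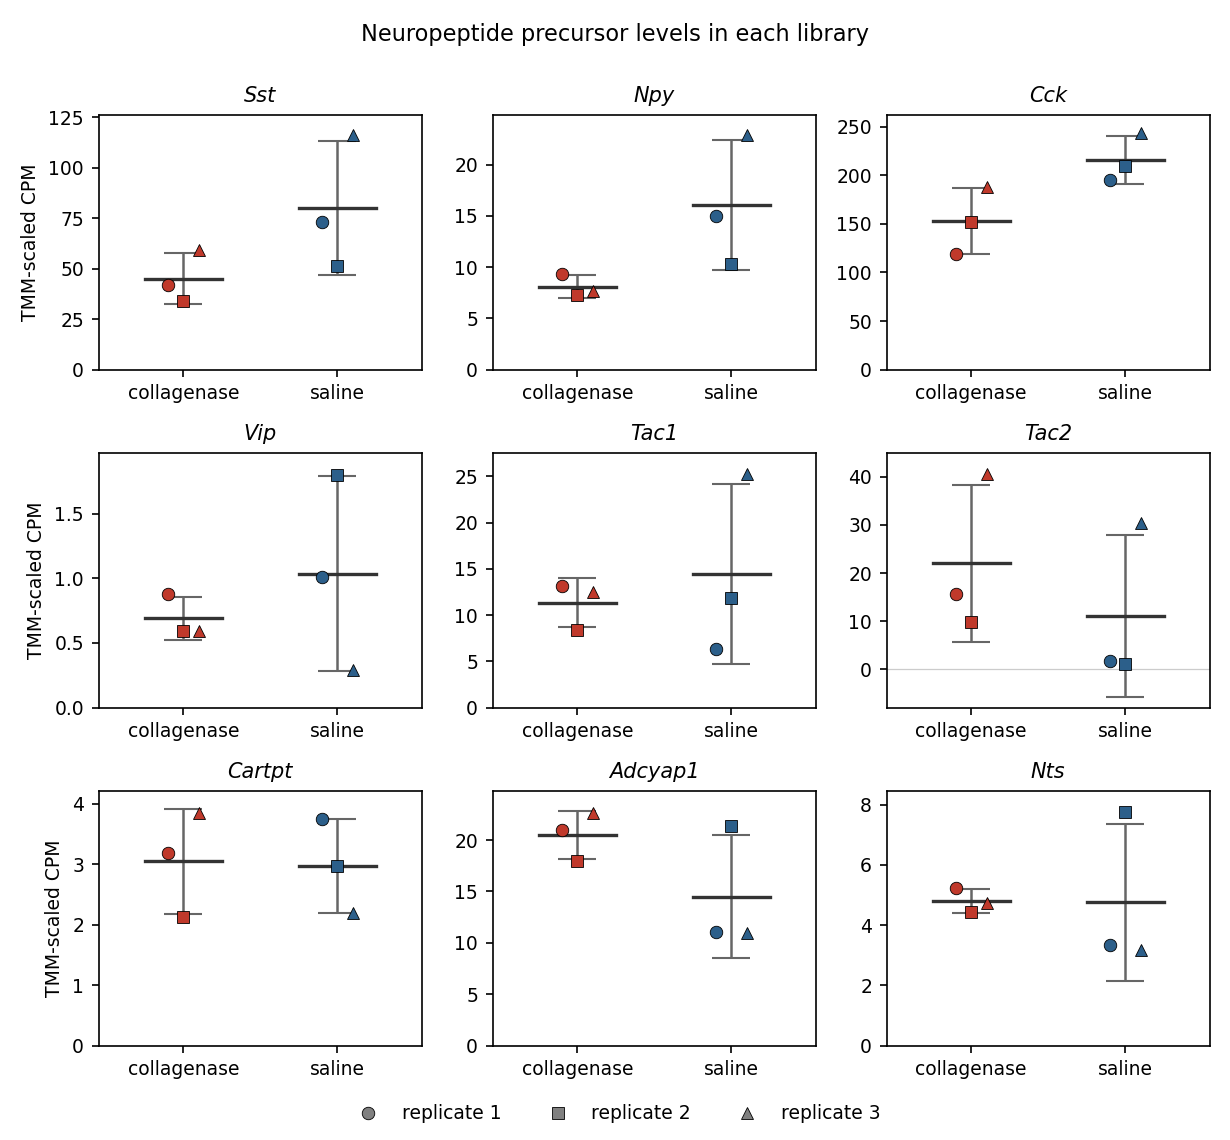
TMM-scaled CPM of each of the 9 precursor genes in each of the 3 collagenase and 3 saline libraries (points), with the group mean and SD (bars); each panel has its own axis. Npy and Cck do not overlap between the groups, and Tac2 is near the floor of its panel in saline libraries 1 and 2 and high in saline library 3.

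None of the 9 precursors passed the adjusted threshold of 0.05 in edgeR, where 2.41% of the tested genes did, and 3 of them, Sst, Npy and Cck, were lower after collagenase at an unadjusted p under 0.05, where 4.60% of tested genes were lower. The middle value of the 9 log2 fold changes, collagenase over saline, was -0.34, against -0.02 over all tested genes. It moved with the method, to -0.07 and -0.08 in limma on log2 FPKM with a pseudocount of 0.1 and 1. With a replicate block in edgeR it was -0.17. For 2 of the 9, Npy and Cck, every collagenase library lay below every saline library, which held for 7.50% of the tested genes. With DESeq2 Npy alone passed, at an adjusted p of 0.0135, where 4.00% of the genes with an adjusted p did.

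Npy lies on chromosome 6 (49822710 to 49829507, plus strand, GRCm38). It had 9.35, 7.26 and 7.72 CPM in the collagenase libraries, against 15.0, 10.3 and 22.9 CPM in the saline libraries. All 3 collagenase libraries were below the lowest saline library. The log2 fold change was -0.99 ± 0.27 (SE, n = 3 each; edgeR adjusted p = 0.152, 95% interval -1.61 to -0.36). Without saline library 2, the lowest of its group, Npy fell, with a log2 fold change of -1.22 and an edgeR adjusted p of 0.0326, in a fit that called 1.98% of its genes. Without saline library 3, the highest, it was -0.64 (edgeR adjusted p = 0.107).

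Sst lies on chromosome 16 (23889573 to 23890958, minus strand). It had 41.9, 34.2 and 59.3 CPM after collagenase, against 73.2, 51.1 and 116.1 CPM after saline. Collagenase library 3 was above saline library 2, so the groups overlapped. The log2 fold change was -0.83 ± 0.33 (edgeR adjusted p = 0.369, interval -1.60 to -0.06), and without saline library 3 it was -0.46 (edgeR adjusted p = 0.382).

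Cck lies on chromosome 9 (121489824 to 121495694, minus strand). It had 119.5, 151.6 and 188.1 CPM after collagenase, against 195.2, 209.6 and 243.6 CPM after saline. The highest collagenase library lay just under the lowest saline library. The log2 fold change was -0.50 ± 0.17 (edgeR adjusted p = 0.253, interval -0.88 to -0.11). Without saline library 3 it was -0.41 (edgeR adjusted p = 0.228). In an alternative added after the data had been seen, which left out collagenase library 3 and saline library 3, the libraries with the highest habenular sums, it was -0.57 with an edgeR adjusted p of 0.0345, where 5.93% of the genes of that fit were called. In the other alternative added then, without collagenase library 1 and saline library 3, it was -0.26 (edgeR adjusted p = 0.286).

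Markers of inhibitory neurons were lower in sum after collagenase, like Sst and Npy. Of 15 such genes 1 fell, where 0.290% of all tested genes did. Dlx1, a transcription factor of forebrain inhibitory neurons, had 6.07, 4.84 and 4.9 CPM after collagenase, against 12.6, 8.41 and 13.0 CPM after saline (log2 fold change -1.10 ± 0.21, edgeR adjusted p = 0.0328). Its call was lost in 4 of the 6 fits that left out 1 library, with a highest adjusted p of 0.167. Gad1, which makes GABA, stood at 297.4 ± 76.5 CPM after collagenase and 469.3 ± 98.3 CPM after saline and did not pass (edgeR adjusted p = 0.241). Among the 15 markers 12 had a negative log2 fold change, with a median of -0.66. Negative values were also found for 11 of 12 relay markers (median -0.25), 10 of 11 pan-neuronal markers (median -0.17), all 9 striatal markers (median -0.99) and all 6 oligodendrocyte markers (median -0.17). All 9 striatal markers were highest in saline library 3. Their sums in saline libraries 1 and 2, 218.8 and 182.3 CPM, lay within the range after collagenase, 162.4 to 340.1 CPM. The 15 inhibitory neuron markers summed to 1384.0, 1389.3 and 1342.8 CPM after collagenase, against 1687.6, 1550.8 and 1598.3 CPM after saline. None of the 15 was at 0 in any library. In bulk tissue fewer cells of a type and less RNA per cell cannot be told apart, and the part of these markers in the values of Sst and Npy was not tested.

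Per unit of Gad1, in FPKM, Npy was 0.152, 0.133 and 0.214 after collagenase, against 0.151, 0.151 and 0.318 after saline, and Sst was 0.536, 0.492 and 1.29, against 0.581, 0.588 and 1.26. Both ratios overlapped between the groups and were highest in library 3 of each group. The ratio of Sst to Npy was 3.52, 3.71 and 6.05 after collagenase, against 3.84, 3.89 and 3.98 after saline, and was highest in collagenase library 3. The 4 reticular thalamic markers summed to 110.0, 114.9 and 113.5 CPM after collagenase, against 163.9, 95 and 169.4 CPM after saline, with overlap between the groups. The sum joins opposite directions, and none of the 4 passed. Ecel1 had a log2 fold change of 0.79 (edgeR adjusted p = 0.0543), against -1.14 for Six3, -1.07 for Isl1 and -0.38 for Pvalb. Pvalb is also one of the inhibitory neuron markers.

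Excitatory markers of cortex and hippocampus were lower in sum as well, like Cck. Slc17a7, the vesicular glutamate transporter of cortical and hippocampal neurons, fell to 249.2 ± 13.6 CPM after collagenase, against 442.6 ± 52.0 CPM after saline (log2 fold change -0.83 ± 0.12, edgeR adjusted p = 0.0123), and its call was lost in 4 of the 6 fits that left out 1 library, with adjusted p up to 0.0778. Slc17a6, the transporter of relay neurons, stood at 490.8 ± 72.6 CPM after collagenase and 520.5 ± 116.5 CPM after saline (edgeR adjusted p = 0.919). The 10 markers of cortex and hippocampus summed to 345.1, 342.0 and 344.8 CPM after collagenase, against 594.4, 635.2 and 528.8 CPM after saline, and Slc17a7 made up most of each sum. Their part in the values of Cck was not tested.

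**Figure D2:**
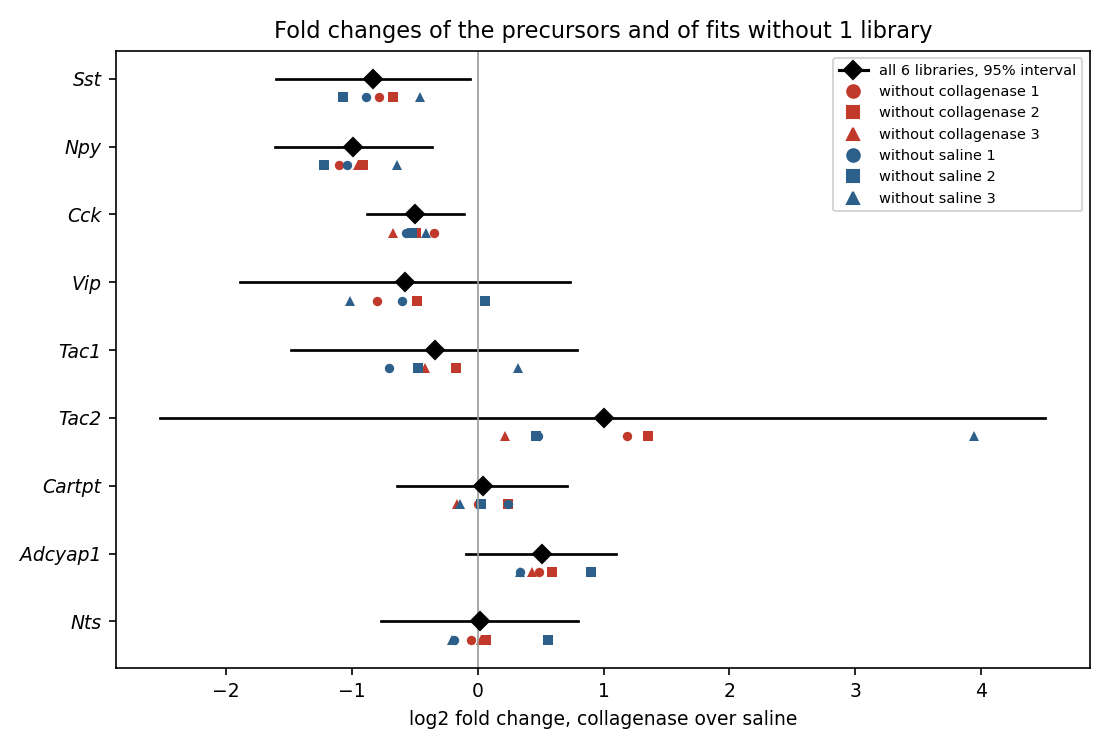
Log2 fold change of each precursor, collagenase over saline, with its 95% interval (bars) and the values obtained when each of the 6 libraries is left out in turn (small points). The intervals of Npy, Sst and Cck lie below 0, and Tac2 spans the widest interval, -2.52 to 4.51.

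Tac2 varied most. It lies on chromosome 10 (127724478 to 127731768, plus strand) and had 15.7, 9.81 and 40.5 CPM in the collagenase libraries, against 1.69, 1.13 and 30.4 CPM in the saline libraries. Saline library 3 was close to the highest collagenase library, while the other saline libraries were below all collagenase libraries. The log2 fold change was 1.00 ± 1.38 (edgeR adjusted p = 0.863). Without saline library 3 it was 3.94 (edgeR adjusted p = 0.0985). Without collagenase library 3 and saline library 3 it was 3.17 (edgeR adjusted p = 0.00413), in the fit that called 5.93% of its genes. Without collagenase library 1 and saline library 3 it was 4.14 and did not pass (edgeR adjusted p = 0.208). The highest library was 35.7 times the lowest, and 0.58% of the tested genes had a wider range on the log2 scale.

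The gene whose pattern over the 6 libraries came nearest to Tac2 was Gpr151, an orphan receptor of habenular neurons and one of the 8 habenular markers, with a root mean square difference of 0.39 in centred log2 CPM. Gpr151 had 18.5, 8.63 and 33.6 CPM after collagenase, against 2.19, 0.64 and 21.6 CPM after saline. In all 8 habenular markers the highest 3 libraries were collagenase libraries 1 and 3 and saline library 3. This held for 2 of the 9 precursors, Tac2 and Tac1. The ratio of Tac2 to Gpr151 in FPKM was 2.05, 2.73 and 2.91 after collagenase, against 1.86, 4.44 and 3.38 after saline. It spanned 2.38-fold over the 6 libraries. The part of habenular tissue in the values of Tac2 was not tested.

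Tac1, on chromosome 6 (7554879 to 7565834, plus strand), had 13.2, 8.36 and 12.5 CPM after collagenase, against 6.38, 11.8 and 25.2 CPM after saline. The saline libraries enclosed the collagenase libraries. The log2 fold change was -0.34 ± 0.48 (edgeR adjusted p = 0.859), and it turned to 0.32 without saline library 3, the library with the highest striatal markers. The highest 3 libraries of Tac1 were those of the habenular markers, saline library 3 and collagenase libraries 1 and 3. The parts of striatal and of habenular tissue in the values of Tac1 were not tested.

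**Figure D3:**
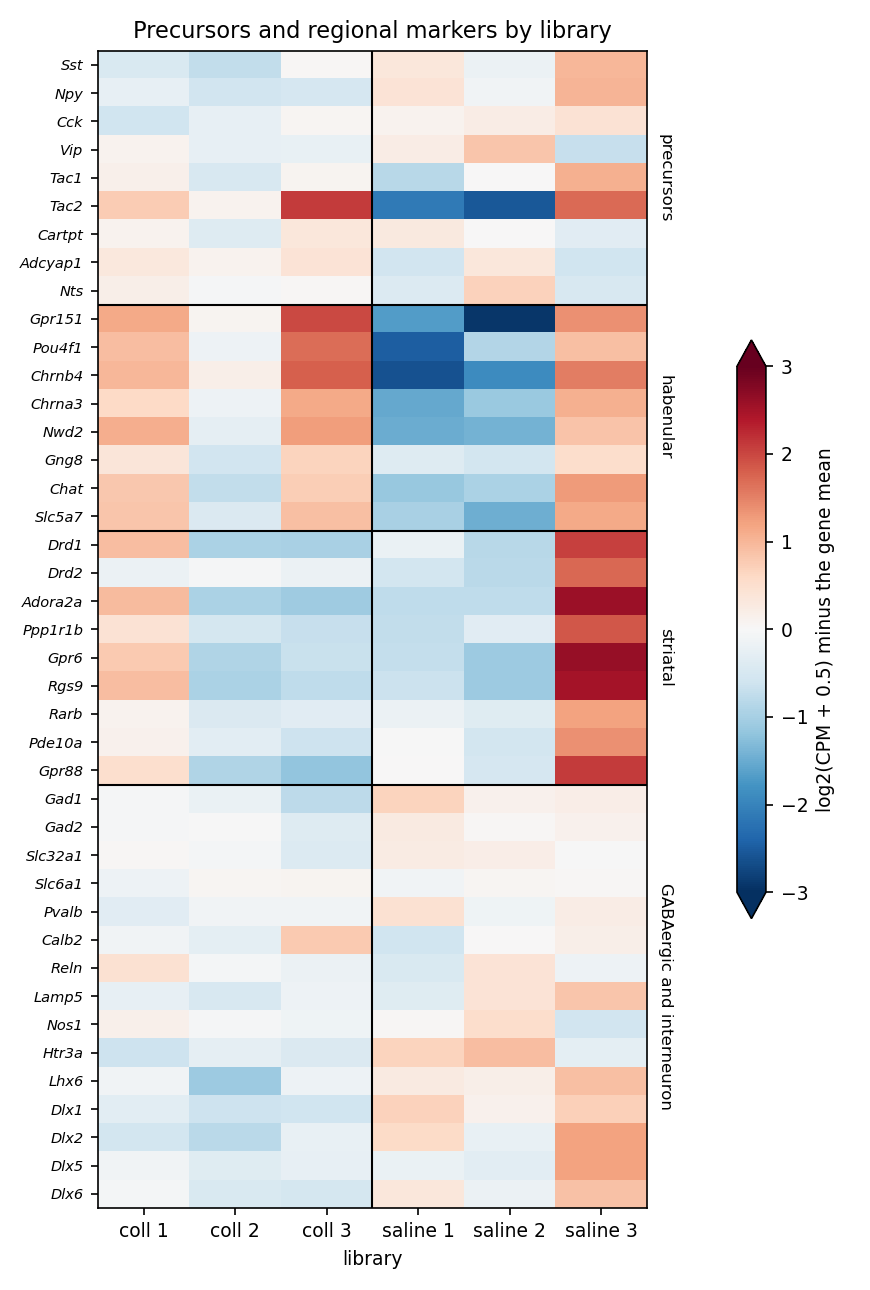
Log2(CPM + 0.5) of the precursors and of the habenular, striatal and inhibitory neuron markers in each library, minus the mean of the gene over the 6 libraries (colour). Tac2 follows the habenular rows, with low values in saline libraries 1 and 2, and the striatal rows are highest in saline library 3.

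Adcyap1, on chromosome 17 (93199017 to 93206537, plus strand), had 21.0, 18.0 and 22.6 CPM after collagenase, against 11.1, 21.4 and 11.0 CPM after saline. Saline library 2 lay among the collagenase libraries and the other saline libraries below them. The log2 fold change was 0.51 ± 0.26 (edgeR adjusted p = 0.507, interval -0.09 to 1.10). Without saline library 2 Adcyap1 rose, with a log2 fold change of 0.90 and an edgeR adjusted p of 0.0323. Without saline library 3 it was 0.34 (edgeR adjusted p = 0.527).

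Nts, on chromosome 10 (102481756 to 102490486, minus strand), had a similar arrangement. It had 5.23, 4.44 and 4.74 CPM after collagenase, against 3.33, 7.77 and 3.17 CPM after saline. The saline range enclosed the collagenase range, and the log2 fold change was 0.02 ± 0.34 (edgeR adjusted p = 0.992). Without saline library 2 it was 0.56, and it was negative in 3 of the 6 fits that left out 1 library, at -0.05 without collagenase library 1, -0.19 without saline library 1 and -0.20 without saline library 3. Saline library 2 was also the highest in all 6 choroid plexus markers. These summed to 161.8, 140.4 and 19.7 CPM after collagenase, against 95.6, 236.1 and 13.4 CPM after saline. Among the collagenase libraries their sum was lowest in library 3, where Adcyap1 was highest. The sum of the cortical and hippocampal markers was also highest in saline library 2, at 635.2 CPM. The part of neighbouring tissue in the values of Adcyap1 and Nts was not tested.

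Cartpt, on chromosome 13 (99898489 to 99901091, minus strand), varied least, with a highest library 1.81 times the lowest. It had 3.19, 2.12 and 3.84 CPM after collagenase, against 3.74, 2.97 and 2.2 CPM after saline. The groups covered almost the same range, and the log2 fold change of 0.04 had an interval of -0.64 to 0.71 (edgeR adjusted p = 0.98). It turned to -0.14 without saline library 3 and to -0.16 without collagenase library 3. Vip, on chromosome 10 (5639218 to 5647617, plus strand), was the scarcest, with 42, 22 and 23 counts after collagenase, against 45, 62 and 10 counts after saline. These counts correspond to 0.882, 0.591 and 0.596 CPM after collagenase, against 1.01, 1.8 and 0.293 CPM after saline. Its log2 fold change of -0.58 had an interval of -1.89 to 0.73 (edgeR adjusted p = 0.778). It turned to 0.06 without saline library 2 and was -1.01 without saline library 3.

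Likeness of pattern was measured for the other precursors in the same way, over 6 libraries and 13588 genes. Npy was nearest to Dlx6, a transcription factor of forebrain inhibitory neurons, at a root mean square difference of 0.10, and then to Vipr1 and Tiam2 at 0.18 each. The nearest genes to Sst were Trex1, Pdlim3 and Fosb at 0.19 each, and the nearest to Cck were Ndufa3 at 0.06 and Ly6c1 and C1qtnf4 at 0.09 each. Adcyap1 was nearest to Hspb8 at 0.09, Cartpt to Sytl4 at 0.10, Nts to Mroh7 at 0.15, Vip to Itga8 at 0.17 and Tac1 to Col6a1 at 0.20. With so many genes and 6 libraries some genes come close to any pattern, and no precursor was among the nearest genes of another.

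Of the 20 receptor genes for these peptides 18 were tested, and Npy4r and Tacr2 were too low. None passed the adjusted threshold. At an unadjusted p under 0.05, 4 were lower and 2 higher after collagenase, where 4.60% of all tested genes were lower and 7.44% higher, and the median log2 fold change of the 18 was -0.19. In limma on log2 FPKM that median was -0.07 (pseudocount 0.1) and -0.03 (pseudocount 1). The most abundant receptors per unit length were Ntsr2, a neurotensin receptor known from astrocytes, at 129.2 FPKM after collagenase and 115.9 FPKM after saline, the sorting receptor Sort1, which also binds neurotensin, at 55.9 and 60.1 FPKM, and the PACAP receptor Adcyap1r1 at 34.5 and 25.8 FPKM.

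Npy2r, the NPY receptor best known from axon terminals, had 5.52, 2.9 and 4.87 CPM after collagenase, against 14.2, 18.7 and 4.9 CPM after saline. Saline library 3 lay among the collagenase libraries. Its log2 fold change was -1.51 ± 0.48 (edgeR adjusted p = 0.244). It passed with DESeq2 (adjusted p = 0.00886) and without saline library 3, with a log2 fold change of -1.89 and an edgeR adjusted p of 0.0124, in a fit that called 5.21% of its genes. The cortical and hippocampal marker Neurod6 had 3.65, 0.54 and 0.57 CPM after collagenase, against 23.0, 39.8 and 0.176 CPM after saline, and its part in the values of Npy2r was not tested.

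The cholecystokinin receptor Cckar stood at 2.21 ± 0.529 CPM after collagenase and 4.52 ± 2.08 CPM after saline (log2 fold change -1.03, edgeR adjusted p = 0.286). In CPM both receptors of VIP were lower after collagenase without overlap between the groups, which held for 7.50% of all tested genes. In FPKM both overlapped, with Vipr1 at 0.441 in collagenase library 1 and 0.416 in saline library 2. Vipr2 was at 9.55 FPKM in collagenase library 2 and 8.82 FPKM in saline library 3. Vipr1 stood at 1.54 ± 0.503 CPM after collagenase and 2.84 ± 0.825 CPM after saline, and Vipr2 at 27.7 ± 4.47 and 36.2 ± 2.49 CPM, with edgeR adjusted p of 0.308 and 0.264. PACAP also acts on both of these receptors. Its selective receptor Adcyap1r1 and the neurokinin B receptor were higher without overlap, which held for 10.1% of all tested genes. Adcyap1r1 had 230.0, 201.8 and 196.2 CPM after collagenase, against 184.7, 181.4 and 132.8 CPM after saline (log2 fold change 0.33, edgeR adjusted p = 0.412). Tacr3, the neurokinin B receptor, had 6.36, 7.88 and 10.3 CPM after collagenase, against 4.46, 6.25 and 5.54 CPM after saline (log2 fold change 0.59, edgeR adjusted p = 0.316).

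**Figure D4:**
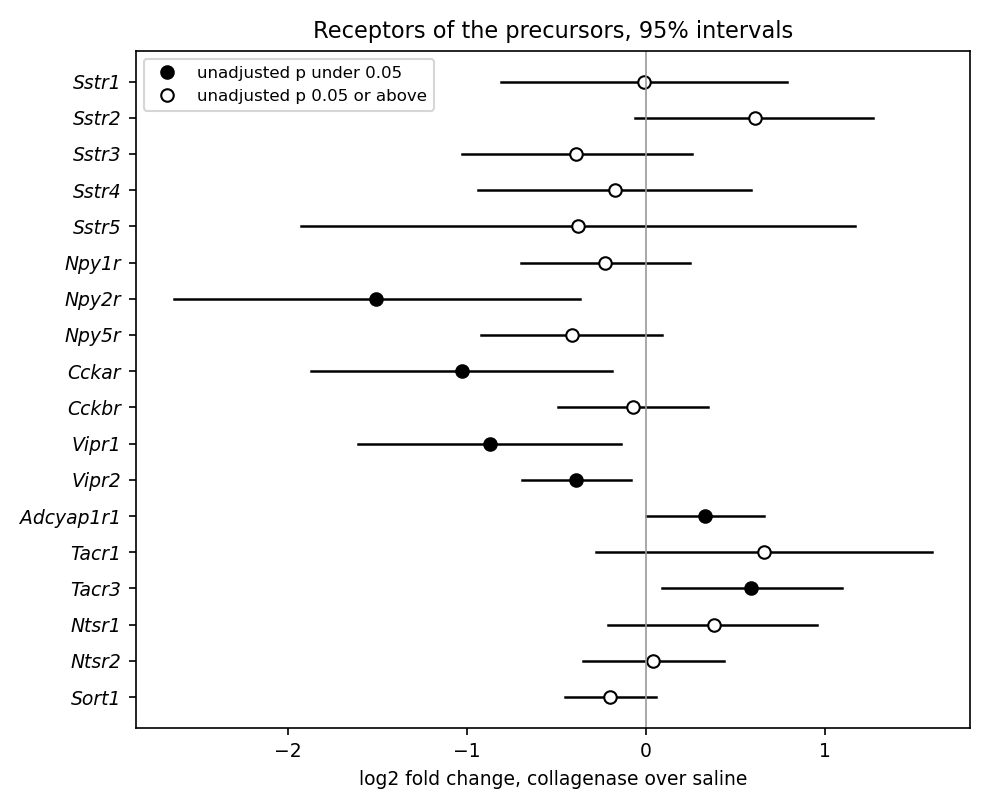
Log2 fold change, collagenase over saline, of the 18 tested receptor genes with 95% intervals, and filled points where the unadjusted p was under 0.05. Npy2r is the lowest, at -1.51, and Adcyap1r1 and Tacr3 are the filled points above 0.

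Among 13 genes that process precursors or fill dense-core vesicles none passed in edgeR, 1 was higher and 2 were lower at an unadjusted p under 0.05, where 7.44% of all tested genes were higher and 4.60% lower. The median log2 fold change was 0.04. The granin Vgf came closest, at 138.7 ± 9.24 CPM after collagenase and 188.8 ± 11.7 CPM after saline, with a log2 fold change of -0.44 ± 0.10 (edgeR adjusted p = 0.0659). It passed with DESeq2 (adjusted p = 0.00244). The vesicle priming factors Cadps and Cadps2 had log2 fold changes of -0.29 and 0.66, with edgeR adjusted p of 0.307 and 0.251.

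Of 12 enzymes that degrade peptides 1 rose, where 2.12% of all tested genes did. Anpep, the aminopeptidase N of vessel-associated and myeloid cells, had 15.5, 11.5 and 10.6 CPM after collagenase, against 3.38, 4.33 and 4.19 CPM after saline, with no overlap. Its log2 fold change was 1.66 ± 0.20 (edgeR adjusted p = 0.00599), and it passed in all 6 fits that left out 1 library. The 8 microglial markers summed to 535.8, 443.5 and 372.9 CPM after collagenase, against 202.4, 201.2 and 219.2 CPM after saline, and their part in the values of Anpep was not tested. Neprilysin (Mme), which cleaves substance P and other members, stood at 12.9 ± 2.74 CPM after collagenase and 12.3 ± 4.41 CPM after saline, with a log2 fold change of 0.07 (edgeR adjusted p = 0.955). Ece2 and Npepps had log2 fold changes of 0.31 and -0.10, with edgeR adjusted p of 0.22 and 0.802.

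Of 29 further neuropeptide precursors 16 were tested and none passed in edgeR. At an unadjusted p under 0.05, 1 was higher and 2 were lower, where 7.44% of all tested genes were higher and 4.60% lower, and the median log2 fold change was 0.10. Thyrotropin-releasing hormone (Trh) had 7.27, 4.76 and 3.68 CPM after collagenase, against 12.3, 7.33 and 12.6 CPM after saline. In CPM every collagenase library was below every saline library. In FPKM collagenase library 1, at 5.35, was above saline library 2, at 5.05. The log2 fold change of Trh was -1.04 ± 0.30 (edgeR adjusted p = 0.166). It passed with DESeq2 (adjusted p = 0.0218). Vasopressin (Avp) had a log2 fold change of -2.12 (edgeR adjusted p = 0.233). Relaxin 3 (Rln3) had 0.336, 1.67 and 1.58 CPM after collagenase and was at 0 counts in saline libraries 1 and 3, with 0.32 CPM in saline library 2 (edgeR adjusted p = 0.252).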

How the data were processed

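Per the file headers, the deposited tables gave each feature of the 6 libraries a count and an FPKM. The counts used were whole numbers and were taken as raw read counts. Software listed in the submitters' processing notes was HISAT2 2.2.1 with FastQC, StringTie and DESeq2, on GRCm38. How the authors treated strand, and which annotation they used, is not given in the sources used here, and in GENCODE M21 no annotated gene overlaps a member. Groups followed the sample titles. The counts went into edgeR 4.0.16 (R 4.3.3) with TMM factors of 0.898 to 1.063, filterByExpr and a two-sided quasi-likelihood F-test (robust), and p-values were adjusted over 17240 genes by Benjamini-Hochberg, threshold 0.05. The procedure was tested on simulated data. The authors' FPKM were used to compare levels between genes. Alternatives were DESeq2 1.42.0, other scaling or filtering, limma 3.58.1 on log2 FPKM with a pseudocount of 0.1 or 1, a replicate block, and leaving out libraries. Text names followed a rule: the 9 members, the called genes and up to 3 genes with the smallest p in each list, and the 3 nearest patterns per member. Genes named outside it were chosen after their values were seen. The members and lists were chosen with earlier results of these data known. A gene of the inhibitory neuron list is not reported here and was left out of that list's counts and sums. Sequences are from RefSeq (GRCm38.p6), and protein sequences were not used here. The number of replicates limits the precision, and low counts add to this for Vip.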

Additional observations from a re-analysis of the deposited data

How the results depend on the processing

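Of 135 values of the 9 precursors under 15 alternatives, 116 kept direction and call, 6 became calls and 13 turned direction. Sst, Npy and Cck were negative and Tac2 and Adcyap1 positive in every alternative. Replicate numbers gave no clear pairing of the libraries. Deviations of same-numbered libraries correlated at 0.044, 0.107 and 0.203. Collagenase library 1 correlated best with saline library 2, at 0.076, and collagenase libraries 2 and 3 with the saline library of the same number. With a replicate block 302 genes (1.75%) were called against 416. Among them was 1 member, Sst, with a log2 fold change of -0.79 (edgeR adjusted p = 0.0292). DESeq2 called 788 genes, 608 higher and 180 lower, and 1 gene each among members (Npy, -0.99), receptors, other precursors and processing genes. Limma on FPKM called 22 (pseudocount 0.1) and 23 (pseudocount 1) lower genes against 50. Leaving out 1 library gave 85 to 917 calls, 81 to 503 higher and 4 to 414 lower. Leaving out 1 or 2 libraries gave log2 fold changes of -1.07 to -0.41 for Sst, -1.22 to -0.60 for Npy, -0.67 to -0.26 for Cck, -1.24 to 0.06 for Vip, -0.70 to 0.32 for Tac1, 0.22 to 4.14 for Tac2, -0.32 to 0.24 for Cartpt, 0.28 to 0.90 for Adcyap1 and -0.27 to 0.56 for Nts. Without 1 library, calls ranged from 0 to 2 members, 0 to 1 receptors, 0 to 2 other precursors and 0 to 1 processing genes. Vip turned to 0.06 without saline library 2, Tac1 to 0.32 without saline library 3, Cartpt to -0.16 without collagenase library 3 and -0.14 without saline library 3, and Nts to -0.05 without collagenase library 1, -0.19 without saline library 1 and -0.20 without saline library 3. In alternatives added after the data had been seen, without collagenase library 1 and saline library 3, 977 genes were called, 513 of them lower, with 1 receptor and 1 other precursor, and Tac1 was 0.20, Cartpt -0.17 and Nts -0.27. Without collagenase library 3 and saline library 3, 1034 genes were called (608 higher, 426 lower), with 2 members (Cck, -0.57, and Tac2, 3.17), 1 receptor and 1 processing gene, and Tac1 was 0.26, Cartpt -0.32 and Nts -0.18. The cause of these changes was not tested.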

Other observations

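Hypothalamic precursors outside the described set differed widely between libraries of the same group. Pmch, the melanin-concentrating hormone precursor, had 1.91, 4.52 and 12.4 CPM after collagenase, against 32.1, 0.611 and 0.117 CPM after saline. Hcrt, the orexin precursor, had 0.042, 0.403 and 3.37 CPM after collagenase, against 3.42, 0.0 and 0.0587 CPM after saline. Both genes were highest in saline library 1 and next highest in collagenase library 3. Oxt, the oxytocin precursor, was too low to be tested and had 0.855 CPM in collagenase library 3 and 1.92 CPM in saline library 1, the 2 libraries where it was highest. The 10 hypothalamic markers, which include these genes, summed to 10.2, 9.06 and 24.6 CPM after collagenase, against 45.5, 4.89 and 9.15 CPM after saline. These genes were chosen after their values were seen, and the part of hypothalamic tissue in them was not tested.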
